A study of Mus musculus with 24 samples.

Results

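Oxidative phosphorylation genes were followed in mouse intestinal organoids with and without the oncogenic alleles BRAFV600E and p53R172H. The members were the protein-coding genes whose symbols named a subunit of the respiratory chain or of ATP synthase, or an Ndufaf assembly factor of complex I, and they numbered 106 of the 45706 genes in the count tables. Of these, 93 were nuclear genes and 13 were encoded in mitochondrial DNA (mtDNA). The nuclear members comprised 38 genes of complex I, 8 complex I assembly factors, 4 genes of complex II, 8 of complex III, 18 of complex IV and 17 of complex V. The rule that picks them reads gene symbols.

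The organoids were grown from small intestine (SI) or colon (COL) epithelium of C57BL/6N mice that carried a tamoxifen-inducible Cre recombinase under the Villin promoter (Villin::CreERT2), which is active in intestinal epithelial cells. Cultures carried the heterozygous allele BraffloxV600E/+ (BRAF), the heterozygous allele Trp53LSL-R172H/+ (p53), or both (BRAFp53). The "on" organoids received 4-hydroxytamoxifen for 24 h, at 0.5 µM in SI and 3.5 µM in COL, and the "off" organoids received the solvent ethanol. RNA was isolated on day 8 in SI and on day 3 in COL. Each of the 12 groups of tissue, genotype and state held 2 libraries, 24 in all, from 6 cultures. Every group carried the Cre transgene and the alleles of its genotype, and by design on and off differed only in the treatment. Before recombination the Braf allele expresses the wild-type protein, and the stop cassette of the p53 allele blocks its expression. Because each genotype was a single culture in each tissue, the spread between duplicates measured handling and not animals, and a difference between genotypes or tissues was a difference between cultures. SI and COL also differed in dose and day, and the study's medium for colonic crypts held added Wnt3a and a GSK3 inhibitor. These differences cannot be told apart from the tissue.

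The respiratory chain of the inner mitochondrial membrane passes electrons from NADH and succinate to oxygen and pumps protons, and ATP synthase uses the proton gradient to make ATP. Complex I oxidises NADH, complex II (succinate dehydrogenase) oxidises succinate and is also an enzyme of the tricarboxylic acid cycle, complex III reduces cytochrome c, complex IV reduces oxygen, and complex V is ATP synthase. All complexes but complex II combine nuclear subunits with a few made from mtDNA, whose genes are transcribed as long polycistronic RNAs by a separate polymerase inside the organelle. In the intestinal epithelium, oxidative metabolism is known to be high in differentiated enterocytes and colonocytes and in the stem cell compartment.

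No promoter word searched was common to most nuclear members. RefSeq promoters (GRCm38.p6, 250 bases before to 50 after the start) were matched for 76 of the 93 nuclear genes, which gave 81 promoters. The NRF1 word GCGCATGC lay on either strand of 14.8% of them and of 2.7% of all 32851 promoters. The ETS word CCGGAAG lay in 22.2% and 8.9%, the YY1 word AAGATGG in 14.8% and 6.3%, and the ERRA word AAGGTCA in 9.9% and 4.7%. Among the 21263 protein-coding promoters these shares were 3.5%, 11.6%, 6.2% and 4.1%. The YY1 words lay mostly downstream of the start, since only 1.2% of the member promoters held the word in the 250 bases before it. The 100 bases before the start are shown for 4 members whose values follow, a pair with a word there (Ndufaf1 and Atp5g3) and a pair with none (Ndufs8 and Ndufb8), as examples of what these windows hold and not of a relation to the responses. Counted over the matched members tested in COL, those with any of the 4 words in the 250 bases before the start fell in COL BRAF in 6 of 25 genes and those with none in 15 of 49, and they rose in COL BRAFp53 in 6 of 25 and 6 of 49. The share of all genes was 9.61% for falls in COL BRAF and 9.95% for rises in COL BRAFp53, and the difference between genes with and without a word was not tested. All are on the minus strand and are written 5′ to 3′ in the direction of transcription. The capitals mark the ETS word in Ndufaf1 and the reverse complement of the ERRA word in Atp5g3.
Ndufaf1, chr2:119662835-119662934: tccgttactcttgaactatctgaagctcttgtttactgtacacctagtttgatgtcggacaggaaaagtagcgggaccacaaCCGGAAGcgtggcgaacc
Atp5g3, chr2:73911327-73911426: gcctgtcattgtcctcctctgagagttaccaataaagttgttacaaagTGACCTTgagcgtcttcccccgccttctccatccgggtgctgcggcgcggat
Ndufs8, chr19:3912775-3912874: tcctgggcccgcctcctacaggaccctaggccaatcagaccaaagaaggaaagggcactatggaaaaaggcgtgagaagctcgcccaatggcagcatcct
Ndufb8, chr19:44555443-44555542: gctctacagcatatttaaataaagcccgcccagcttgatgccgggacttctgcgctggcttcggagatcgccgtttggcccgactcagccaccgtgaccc
These matches describe letters and not binding.

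The libraries held 51174821 to 78175143 counts in COL and 44350747 to 68214835 in SI, and values are given as counts per 1000000 scaled by TMM factors (CPM) unless another scale is named. Car1, a colonocyte gene, reached 1473 to 20040 CPM in COL and at most 0.24 CPM in SI, and Lct, the enterocyte lactase, reached 2.86 to 111 CPM in SI and at most 0.297 CPM in COL. The 7 epithelial markers summed to 8010 CPM or more in every library, whereas the 10 stromal, endothelial and immune markers summed to 5.54 to 15.6 CPM in COL and 1.05 to 2.01 CPM in SI. Trp53 rose in the p53 arm of COL, from 222 and 244 CPM off to 449 and 448 CPM on, and in both BRAFp53 arms. In the SI p53 arm Trp53 read 145 and 145 CPM off and 241 and 251 CPM on, without passing the test (adjusted p = 0.194, edgeR quasi-likelihood test with Benjamini-Hochberg adjustment, as for all adjusted p-values here). Braf did not pass the test in the BRAF arms (adjusted p = 0.0595 in COL and 0.0666 in SI), and its total level does not separate the mutant from the wild-type transcript. The study names 1 donor mouse per genotype. However, the SI p53 and SI BRAFp53 libraries held Xist at 104 to 150 CPM. The COL libraries of these genotypes held the Y-linked Ddx3y. Of 5 sex markers, 4 were at 0 in both off libraries of SI p53 and of SI BRAFp53. In the on libraries of these groups 0 and 1 were at 0 in both, and 0 of the 5 were called in these arms. The SI BRAF on library of replicate 1 held Xist at 15.4 CPM against 0.207 to 0.438 CPM in the other 3 SI BRAF libraries, so the SI BRAF counts and the calls of genes named for this arm are also given without it, which leaves 1 on library.

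Members at near-zero counts were not tested. In COL, 99 members passed the low-count filter (88 nuclear, 11 of mtDNA), and in SI, 102 passed (89 and 13). Cox8c, Cox4i2, Cox7b2 and Cox8b failed it in both tissues, with at most 13 counts in any library, and Cox6a2, mt-Atp8 and mt-Nd4l failed it in COL. The mtDNA members fell into a set of high and a set of low level. mt-Nd1, mt-Nd2, mt-Co1, mt-Nd4, mt-Nd5, mt-Nd6 and mt-Cytb made up nearly all mtDNA counts, whereas mt-Co2, mt-Co3, mt-Atp6, mt-Nd3, mt-Nd4l and mt-Atp8 summed to 15.7 to 34.1 CPM in the 3 COL off cultures and 153 to 255 CPM in the 3 SI off cultures. Of these 6 genes, 5 have a near-whole copy in an annotated pseudogene cluster on chromosome 1 (GRCm38 chr1:24611535-24616197). The copy of mt-Co2 matched 100% over 99.6% of the gene, and that of mt-Co3 100% over 99.9%. Among the genes of high level the cluster covered 63.6% of mt-Nd4 and 31.3% of mt-Co1. Reads that match both places can be lost or split in counting, so the 6 low values may not give the levels of the transcripts. These genes stay in the counts of mtDNA members, and among the 10 members called in COL BRAFp53 and the 9 in SI BRAF below, 3 are of low level in each. A near-identical annotated copy was also found for 23 of the 93 nuclear members, and 42 members shared exonic bases with another gene.

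Per kilobase of annotated length, the mtDNA genes of high level exceeded most nuclear members. This length joins all annotated exons of a gene, 702 bases for Cox6a1 and 4912 for Atp5g1, so ranks that involve nuclear members depend on it. In COL, mt-Co1, the catalytic core of complex IV, averaged 7322 CPM per kb over the 12 libraries, mt-Cytb, the core of complex III, 6309 and mt-Nd1, a membrane subunit of complex I, 4460. In SI the order was mt-Nd1 at 5652, mt-Cytb at 5588 and mt-Co1 at 5166 CPM per kb. The highest nuclear member was Cox6a1, a small complex IV subunit, at 1068 CPM per kb in COL and 1423 in SI. It stood above mt-Nd4 in both tissues (872 and 1215 CPM per kb).

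The mtDNA members made up 1.40% to 4.71% of all counts in COL libraries and 1.91% to 3.77% in SI libraries. In COL BRAFp53 they took 3.27% and 4.71% of counts off and 1.40% and 1.40% on. In SI BRAF they took 3.58% and 3.77% off and 1.93% and 2.29% on. In both arms the on and off libraries did not overlap. The on over off ratio of the summed share was 0.352 ± 0.0899 (propagated SD, n = 2 and 2) in COL BRAFp53 and 0.574 ± 0.0733 in SI BRAF. In SI BRAFp53 the shares were 2.24% and 3.06% off and 1.91% and 1.96% on, a ratio of 0.729 ± 0.161. In COL BRAF the mtDNA shares overlapped, with 2.89% and 3.83% off and 3.27% and 4.12% on. The p53 arms overlapped in COL (1.78% and 2.17% off, 1.91% and 2.47% on) and stood slightly apart in SI (2.48% and 2.11% off, 2.60% and 2.84% on).

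The arms with a lower nuclear share were only partly those with a lower mtDNA share. The nuclear summed share in COL BRAF was 2.32% and 2.20% of counts off and 1.68% and 1.65% on, a ratio of 0.738 ± 0.029 (propagated SD, n = 2 and 2). In SI BRAFp53 it read 3.27% and 3.29% off and 2.75% and 2.60% on, a ratio of 0.816 ± 0.0333. In SI BRAF it read 2.96% and 2.78% off and 2.51% and 2.12% on. The on and off libraries did not overlap in these 3 arms, nor in SI p53, where the nuclear share was 3.26% and 3.38% off and 3.21% and 3.22% on while the mtDNA share was higher on. In COL BRAFp53, where the mtDNA share was lower in the on libraries, the nuclear share was 1.96% and 1.85% off and 1.88% and 2.05% on, which overlapped. The ratio of mtDNA to nuclear counts therefore read 1.67 and 2.55 in COL BRAFp53 off and 0.745 and 0.686 on, and 1.25 and 1.74 in COL BRAF off and 1.95 and 2.49 on. Shares of all counts carry the composition of each library, and on the TMM scale the nuclear ratio was 0.832 in COL BRAF, 1.15 in COL BRAFp53 and 0.985 in SI BRAF, and the mtDNA ratio was 0.703 in SI BRAF. The 2 mtDNA ribosomal RNAs, which are no members, took 3.24% and 4.13% of counts in COL BRAFp53 off and 1.46% and 1.18% on. With 2 libraries on each side an exact permutation test of a single sum cannot go below p = 0.333, so none was run.

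**Figure D1:**
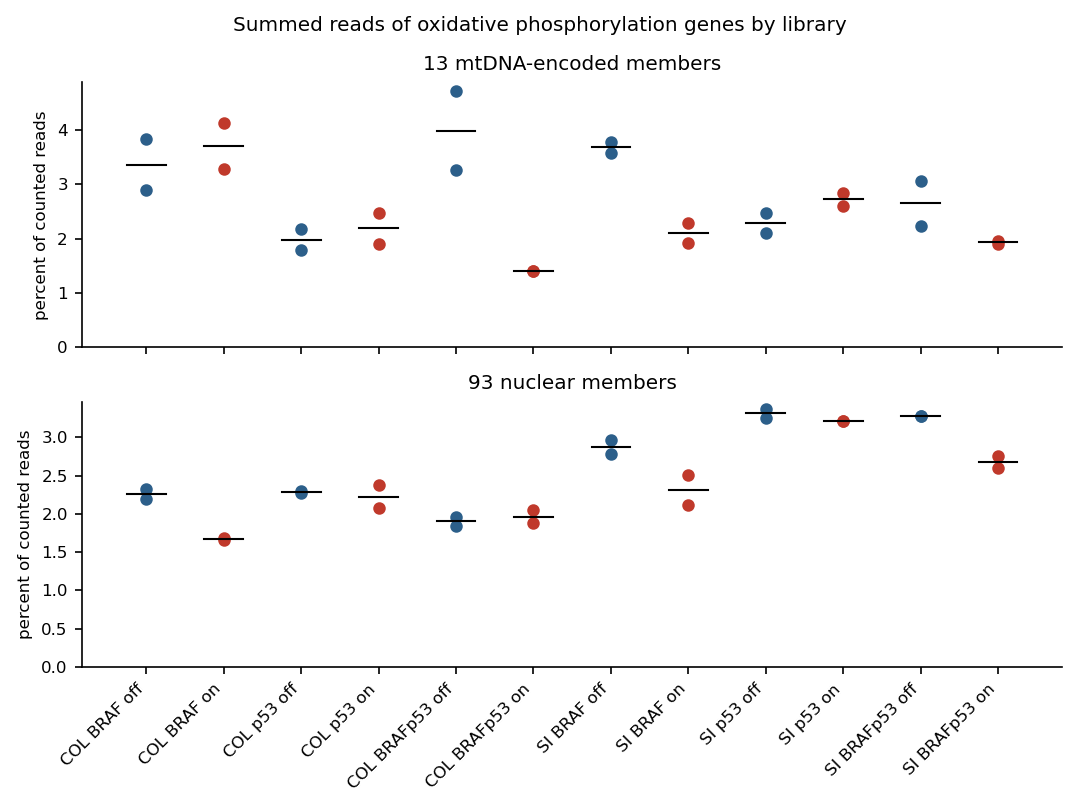
Summed share of the mtDNA members and of the nuclear members in percent of all counts (vertical axes), for each of the 24 libraries by tissue, genotype and state, with points for libraries (blue off, red on) and a line at the mean of 2. The mtDNA share is low in both COL BRAFp53 on libraries (1.40% and 1.40%, against 3.27% and 4.71% off), and the nuclear share is low in both COL BRAF on libraries.

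Activation of BRAFV600E in colon organoids was followed by lower expression of many nuclear members. In COL BRAF, 25 of the 88 nuclear members tested fell and 0 rose by edgeR, where 9.61% of all 18972 genes tested fell and 10.3% rose. Of the 88, 81 had a negative log2 fold change, and the median was −0.29 against −0.01 for all genes. Complex II fell as a whole (4 of 4, median −0.51), followed by complex V (6 of 17, median −0.32), complex I (12 of 38, median −0.35) and its assembly factors (2 of 8). Complex III (0 of 8, median −0.19) and complex IV (1 of 13, median −0.13) had few or no calls.

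Complex II carries electrons from the tricarboxylic acid cycle. Sdhb, its iron-sulfur subunit, was at 361 and 361 CPM off and 238 and 245 CPM on, a log2 fold change of −0.58 (SE 0.09, adjusted p = 0.000864). Sdha, the flavoprotein that holds the active site, was at 523 and 518 CPM off and 370 and 340 CPM on (−0.55, adjusted p = 0.00177). The membrane anchors moved the same way. Sdhd was at 511 and 506 CPM off and 386 and 352 on (adjusted p = 0.00304), and Sdhc was at 374 and 366 off and 303 and 284 on (adjusted p = 0.0188). For all 4 subunits both on libraries lay below both off libraries. The calls of Sdha, Sdhb and Sdhd held with any 1 library left out, and that of Sdhc was lost without any 1 of the 4 COL BRAF libraries.

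The members with the largest falls in COL BRAF were complex I assembly factors. Ndufaf5, which modifies a subunit during assembly, was at 19.8 and 18.1 CPM off and 10.7 and 10.6 CPM on, a log2 fold change of −0.83 (SE 0.15, adjusted p = 0.00288). Ndufaf1, which acts on the membrane arm, was at 30.6 and 27.4 CPM off and 15.9 and 19.8 CPM on (−0.70, SE 0.14, adjusted p = 0.00522). These are the assembly factors called among the 8. Cox7a1, the heart and muscle form of a complex IV subunit, fell from 19.5 and 16.8 CPM to 11.4 and 11.2 CPM (−0.68, SE 0.21, adjusted p = 0.0386). Of the complex I subunits, Ndufb10 of the membrane arm fell by 0.61 (adjusted p = 0.00344) and Ndufv2, which carries an iron-sulfur cluster of the NADH-oxidising module, fell by 0.59 on the log2 scale (adjusted p = 0.00275). In complex V the α subunit Atp5a1 went from 1373 and 1366 CPM to 1023 and 1075 CPM (−0.38). The central stalk subunit Atp5c1 went from 730 and 732 CPM to 550 and 544 CPM (−0.42). Atp5g3, a gene for the ring subunit, was close to the threshold (−0.31, adjusted p = 0.0475, and 0.0552 with RLE size factors). Ndufaf5, Ndufb10 and Ndufv2 kept their calls with any 1 library left out, Ndufaf1 lost its call without COL BRAF off replicate 1 or on replicate 1, Cox7a1 without any 1 of the 4 COL BRAF libraries, and Atp5g3 without any 1 of these or of the p53 off and BRAFp53 off libraries.

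The mtDNA members of COL BRAF did not fall. With edgeR 0 of 11 passed, 0 had an unadjusted p under 0.05, and DESeq2 and limma-voom also called 0. Without the low-count filter edgeR called 4 of them, all rising (mt-Co1, mt-Nd5, mt-Nd6 and mt-Cytb). All 11 log2 fold changes were positive (0.05 to 0.66, median 0.31). mt-Cytb was at 6890 and 8782 CPM off and 9026 and 10670 CPM on (adjusted p = 0.222), and mt-Co1 at 11360 and 15550 CPM off and 14390 and 20140 CPM on (adjusted p = 0.268). The off duplicates alone spanned 11360 to 15550 CPM for mt-Co1. The number of nuclear calls depended on the libraries. It was 10 without COL BRAF on replicate 1, 13 without on replicate 2, 11 without off replicate 1, 16 without off replicate 2, and 43 without COL p53 on replicate 1 or on replicate 2, with the median staying between −0.34 and −0.26. Beside these falls, 4 of 5 stem cell markers and 7 of 8 proliferation genes also fell in COL BRAF. The stem cell markers summed to 345 to 422 CPM off and 113 to 158 CPM on, the proliferation genes to 1505 to 1554 CPM off and 951 to 972 CPM on, and no gene of either list was at 0. Of the other lists, 4 of 6 goblet cell markers (summed 1092 to 1188 CPM off, 1936 to 2210 on), 3 of 5 enteroendocrine markers and 5 of 7 epithelial markers rose, and of 12 enterocyte and colonocyte markers 4 rose and 3 fell. Their part in the result was not tested, and in bulk RNA fewer cells of a type and less RNA per cell cannot be told apart.

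In colon organoids with both alleles mtDNA members fell and some nuclear members rose. In COL BRAFp53, 10 of the 11 mtDNA members tested fell, where 7.76% of all genes fell, with a median log2 fold change of −1.42 (range −1.68 to −1.18). Of the 88 nuclear members, 13 rose and 0 fell, where 9.95% of all genes rose, and 75 were positive with a median of 0.19 against −0.04 for all genes. That is 14.8% of the nuclear members, which was not far from that background, and the direction of the summed nuclear level depended on the scale (ratio 1.15 by TMM, 0.980 as a share of nuclear reads).

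All 7 mtDNA genes of high level fell. mt-Nd5, a proton-pumping subunit of complex I, was at 2399 and 3493 CPM off and 1144 and 1002 CPM on, a log2 fold change of −1.46 (SE 0.18, adjusted p = 0.00027). mt-Cytb was at 8456 and 12230 CPM off and 4251 and 4000 CPM on (−1.33, SE 0.18, adjusted p = 0.000536), and mt-Co1 at 11000 and 16360 CPM off and 5741 and 5402 CPM on (−1.30, SE 0.21, adjusted p = 0.00166). mt-Nd1 (5039 and 7453 CPM off, 2383 and 2280 on), mt-Nd2 (1387 and 2067 off, 594 and 565 on) and mt-Nd4 (1371 and 2087 off, 668 and 626 on) had log2 fold changes of −1.42, −1.57 and −1.42. mt-Nd6 is the member transcribed from the other strand of mtDNA, and it was at 275 and 446 CPM off and 125 and 128 CPM on (−1.51, adjusted p = 0.00414). The strand setting of the counts is not given, so reads of the opposite strand may be counted for mt-Nd6. In each of the 7 both on libraries lay below both off libraries. Among the members of low level, mt-Atp6, mt-Co2 and mt-Co3 fell and mt-Nd3, at 0.45 and 0.535 CPM off and 0.136 and 0.169 CPM on, did not pass (adjusted p = 0.164). The mtDNA ribosomal RNAs fell with them (mt-Rnr1 −1.58, mt-Rnr2 −1.31). Between 9 and 10 mtDNA members were called with any 1 library left out, and mt-Co2 was the gene that lost its call, without COL BRAFp53 off replicate 2 or on replicate 1.

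**Figure D2:**
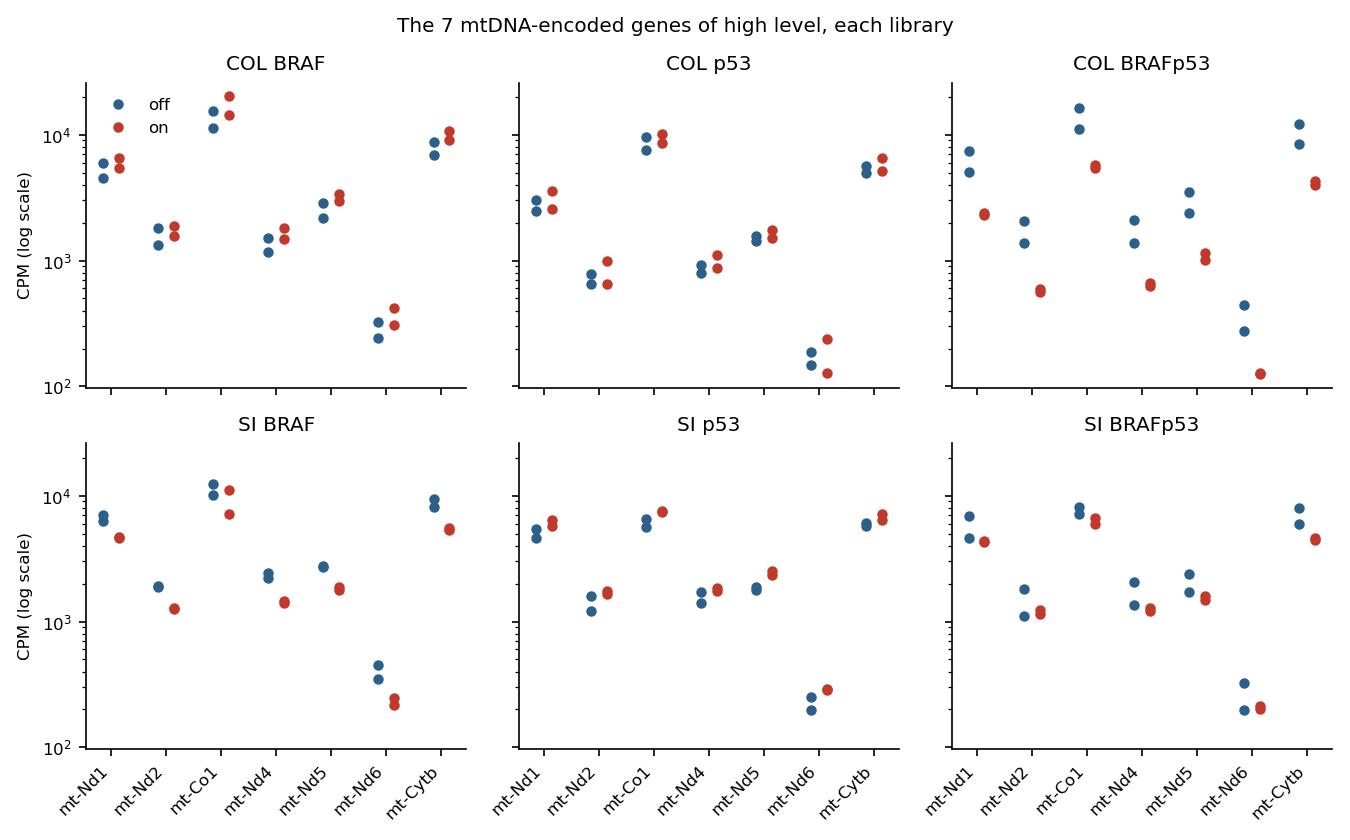
CPM of single mtDNA genes in every library (logarithmic vertical axis), by arm, for the 7 genes of high level, with off libraries in blue and on libraries in red. Both COL BRAFp53 on libraries lie below both off libraries for all 7 genes of high level, for example mt-Nd5 at 1144 and 1002 CPM against 2399 and 3493.

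The nuclear members that rose in COL BRAFp53 were 7 of complex I, 1 of its assembly factors, 1 of complex III and 4 of complex IV, and 0 of complexes II and V. Ndufa11, an accessory subunit of the membrane arm, was at 59.6 and 62.1 CPM off and 98.2 and 86.6 CPM on, a log2 fold change of 0.60 (SE 0.12, adjusted p = 0.00446). Ndufaf5 rose from 9.28 and 9.22 CPM to 13.9 and 14.1 CPM (0.60, adjusted p = 0.0196), and the on level in this culture was below the off level of the COL BRAF culture. Ndufs8, which carries iron-sulfur clusters, was at 157 and 142 CPM off and 204 and 218 CPM on (0.50, adjusted p = 0.00614). Ndufb6 rose by 0.51 (31.6 and 27.6 CPM off, 40.8 and 43.8 on) and Cox6a1 by 0.47 (579 and 561 CPM off, 824 and 758 on). The core complex III protein Uqcrc1 rose by 0.45 (609 and 560 CPM off, 770 and 828 on). These rises were smaller than the falls of the mtDNA genes. Fewer of them passed with a library left out, namely 4 without COL BRAFp53 on replicate 1, 5 without on replicate 2, 6 without off replicate 1 and 2 without off replicate 2. Ndufa11 and Cox6a1 kept their calls with any 1 library left out, Ndufs8 lost it without off replicate 2, Ndufb6 without any COL BRAFp53 library but off replicate 1, and Ndufaf5 without any of the 4. Sdha, at 484 and 418 CPM off and 445 and 453 on, overlapped between the states. Of the stem cell markers 4 of 5 fell in this arm (summed 516 to 636 CPM off, 153 to 207 on), as did 2 of 8 proliferation genes (1616 to 1922 CPM off, 1185 to 1451 on) and 2 of 3 tuft cell markers. Goblet cell markers (4 of 6, summed 941 to 1143 CPM off, 1812 to 2197 on), epithelial markers (5 of 7) and enteroendocrine markers (2 of 5) rose, and of 12 enterocyte and colonocyte markers 2 rose and 3 fell. Their part in the result was not tested.

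In small intestinal organoids BRAFV600E was followed by lower mtDNA transcripts. In SI BRAF, 9 of 13 mtDNA members fell, where 14.2% of all 16856 genes tested fell, and all 13 were negative (median −0.59, range −0.84 to −0.30). mt-Cytb was at 9356 and 8163 CPM off and 5302 and 5539 CPM on (−0.69, SE 0.12, adjusted p = 0.000684). mt-Nd5 was at 2752 and 2727 CPM off and 1780 and 1878 on (−0.58, adjusted p = 0.00272), and mt-Nd4 at 2199 and 2426 off and 1406 and 1461 on (−0.69, adjusted p = 0.00439). mt-Co1 was the exception among the 7 of high level, with 10050 and 12440 CPM off and 7203 and 11030 CPM on, which overlapped (−0.30, adjusted p = 0.186). The calls of mt-Cytb, mt-Nd4, mt-Nd5, mt-Atp6 and mt-Co3 held with any 1 library left out, and that of mt-Nd6 was lost without SI BRAF off replicate 2. Without on replicate 1, the library with Xist, 6 mtDNA members were called, and mt-Nd1, mt-Nd2 and mt-Co2 no longer passed (adjusted p = 0.0598, 0.0713 and 0.0947).

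The nuclear members of SI BRAF went both ways, with 3 rising and 7 falling of 89 where 17.5% of all genes rose and 14.2% fell, so both shares were below those of all genes. The median was −0.08 against −0.06. Scaling by RLE size factors gave 5 and 5. Cox7a1 rose from 59.6 and 47.1 CPM to 93.6 and 83.1 CPM (0.73, SE 0.17, adjusted p = 0.00553), Ndufa11 from 142 and 133 CPM to 189 and 165 CPM (0.37), and Ndufb7, another accessory subunit of complex I, by 0.26. Ndufab1, the mitochondrial acyl carrier protein that is also a subunit of complex I, fell from 151 and 137 CPM to 50.1 and 55.1 CPM (−1.45, SE 0.23, adjusted p = 0.000305). Cox5a of complex IV fell from 30.8 and 30.2 CPM to 8.51 and 13.6 CPM (−1.47, SE 0.51, adjusted p = 0.0407). Both genes varied between duplicates of other groups. Cox5a read 27.5 and 6.35 CPM in COL BRAF off and 13.5 and 59.9 CPM in SI BRAFp53 on, and Ndufab1 read 120 and 47.4 CPM and 83.8 and 164 CPM in these groups. The assembly factors Ndufaf5 (16.6 and 14.7 CPM off, 12.5 and 8.13 on) and Ndufaf1 (24 and 26.2 CPM off, 20.9 and 15.4 on) and the ring subunit gene Atp5g2 (179 and 174 CPM off, 148 and 114 on) also fell. Complex II had 0 calls with edgeR, and Sdha was at 597 and 552 CPM off and 622 and 494 CPM on.

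The count of nuclear calls in SI BRAF rested on single libraries. Without on replicate 1 it was 17, with 1 rising and 16 falling. Cox7a1 and Ndufab1 still passed (adjusted p = 0.0253 and 0.00233), whereas Ndufa11, Ndufb7 and Cox5a did not (adjusted p = 0.075, 0.0798 and 0.192). Ndufaf5 (−0.92, adjusted p = 0.00159), Ndufaf1 (−0.69, adjusted p = 0.00895) and Atp5g2 (−0.61, adjusted p = 0.00202) also passed without it. Without on replicate 2 it was 4, and without off replicate 1 or off replicate 2 it was 3. The call of Ndufab1 held with any 1 library left out, and that of Cox7a1 was lost without SI BRAF off replicate 2. Ndufaf5 lost its call without SI BRAF off replicate 1 or on replicate 2. Atp5g2 lost it without off replicate 1, off replicate 2 or on replicate 2. Ndufaf1 lost it in 9 fits with a library left out, among them those without these same 3 libraries. In this arm 5 of 5 stem cell markers and 5 of 8 proliferation genes fell and 9 of 11 enterocyte markers rose. The enterocyte markers summed to 10600 to 13750 CPM off and 42620 to 46810 CPM on, the stem cell markers to 353 to 387 CPM off and 47.3 to 141 on, and the proliferation genes to 1141 to 1195 CPM off and 576 to 887 on. Goblet cell markers (3 of 6) and epithelial markers (5 of 7) rose, and Paneth cell markers (3 of 5) and tuft cell markers (3 of 3) fell. Without on replicate 1 these counts were the same, except that 7 of 8 proliferation genes fell and 1 of 11 enterocyte markers fell beside the 9 that rose. Their part in the result was not tested.

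In SI BRAFp53 both classes were lower in the on libraries. Of the nuclear members 8 of 89 fell and 0 rose by edgeR, where 4.53% of all genes fell and 6.98% rose (16 called by DESeq2, 16 by limma-voom and 15 by edgeR without the low-count filter), and 86 were negative with a median of −0.27 against −0.03 for all genes. Complex I gave 4 of these falls, complex II 2 and complex IV 2. Cox7a1 fell here, from 61.7 and 50.7 CPM to 32 and 23.4 CPM (−1.02, SE 0.17, adjusted p = 0.00179). Sdhb fell from 816 and 735 CPM to 595 and 505 CPM (−0.50, adjusted p = 0.0237) and Sdha from 827 and 739 CPM to 605 and 528 CPM (−0.47, adjusted p = 0.0253). Ndufv2 and Ndufv1, neighbours in the NADH-oxidising module, fell by 0.49 and 0.44. Of the mtDNA members 2 of 13 fell, mt-Cytb (5978 and 7990 CPM off, 4601 and 4457 on, −0.62, adjusted p = 0.00407) and mt-Nd5 (1731 and 2365 CPM off, 1606 and 1480 on, −0.41, adjusted p = 0.0468). All 13 were negative with a median of −0.30. mt-Nd1, at 4570 and 6935 CPM off and 4363 and 4247 CPM on, did not pass (adjusted p = 0.101).

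These counts changed with single libraries. Among the nuclear members it was 4 without SI BRAFp53 on replicate 1, 3 without on replicate 2, 1 without off replicate 1 and 2 without off replicate 2. Leaving out libraries of other genotypes, which share the estimate of the spread, gave 13 without SI BRAF on replicate 1 or on replicate 2, 4 without SI p53 on replicate 1 or on replicate 2 and 5 without SI p53 off replicate 2. Among the mtDNA members it was 6 without SI BRAFp53 off replicate 1, 0 without off replicate 2, and 1 without either SI BRAFp53 on library, any SI p53 library or either SI BRAF off library. The call of Cox7a1 held with any 1 library left out, and that of mt-Cytb was lost without SI BRAFp53 off replicate 2. In this arm 6 of 6 goblet cell markers rose (summed 377 to 389 CPM off, 927 to 1162 on), as did 4 of 5 Paneth cell markers (136 to 171 CPM off, 191 to 289 on) and 4 of 7 epithelial markers. Of 11 enterocyte markers 3 rose and 4 fell, and 1 of 5 stem cell markers fell (288 to 401 CPM off, 195 to 222 on). Their part in the result was not tested.

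**Figure D3:**
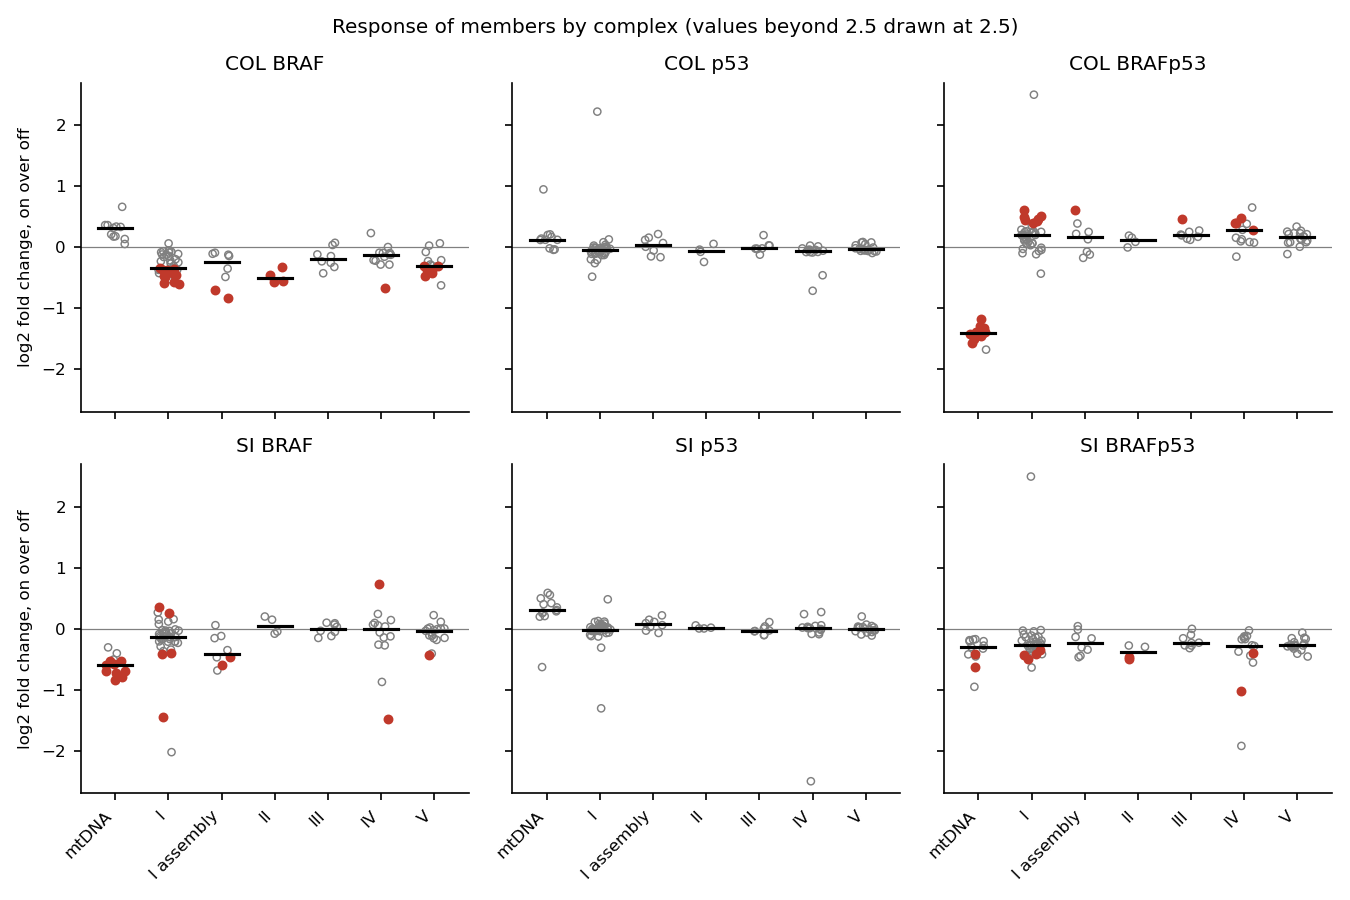
Log2 fold change of on against off for each member tested, by complex and arm, with 1 point per gene, filled red where the adjusted p was under 0.05, a line at the median, and values beyond 2.5 drawn at 2.5. Complex II lies wholly below 0 in COL BRAF (4 of 4 called), and the mtDNA members lie lowest in COL BRAFp53 (median −1.42).

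Activation of p53R172H alone gave no call among the members by edgeR with the low-count filter. In COL p53, edgeR called 0 of 88 nuclear and 0 of 11 mtDNA members, where 0.142% of all genes were called in either direction. At an unadjusted p under 0.05 there were 3 nuclear members and 0 of mtDNA, and DESeq2 and limma-voom called 0, while edgeR without the low-count filter called 1 nuclear member, which fell. In SI p53, edgeR called 0 of 89 and 0 of 13, where 0.0% of all genes were called. At an unadjusted p under 0.05 there were 2 nuclear and 4 mtDNA members, DESeq2 called 2 nuclear members, limma-voom called 0, and edgeR without the low-count filter called 2 nuclear members that fell and 3 mtDNA members that rose. The medians of the nuclear members were −0.04 in COL and 0.00 in SI, and those of the mtDNA members 0.12 and 0.31. Leaving out SI BRAFp53 on replicate 1 or on replicate 2 gave 2 nuclear calls in SI p53. The nuclear members with an unadjusted p under 0.05 in SI p53 were Cox5a, at 52.4 and 107 CPM off and 11.4 and 13.3 on (−2.69, adjusted p = 0.237), and Ndufab1, at 183 and 224 CPM off and 80.8 and 84.4 on (−1.30, adjusted p = 0.194). The mtDNA members of SI p53 included mt-Nd5, whose log2 fold change was 0.40 (adjusted p = 0.586).

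The responses of the BRAF and BRAFp53 cultures differed in colon for both classes. The BRAFp53 response minus the BRAF response was tested as an interaction. In COL, 9 of 88 nuclear members had a higher and 0 a lower difference, where 0.532% of all genes were higher, and 7 of 11 mtDNA members had a lower difference, where 0.374% of all genes were lower. The median difference was 0.48 for the nuclear and −1.66 for the mtDNA members. Among the nuclear members called, Ndufaf5 differed most, by 1.43 on the log2 scale (SE 0.22, adjusted p = 0.0354), and Ndufb10 (0.86), Ndufs7 (0.79), Ndufb8 (0.78), Uqcrc1 (0.78), Sdhb and Sdhd were among the others. The mtDNA differences were −1.79 for mt-Nd5 (adjusted p = 0.0326), −1.73 for mt-Nd4, −1.71 for mt-Nd2, −1.66 for mt-Co1 and mt-Cytb, −1.60 for mt-Nd1 and −1.36 for mt-Co3. These counts were fragile. DESeq2 and edgeR without the low-count filter called more nuclear members, and a fit with a replicate block called none of them. The nuclear count was 0 without COL BRAF on replicate 1, on replicate 2 or off replicate 1 and without COL BRAFp53 on replicate 2 or off replicate 2, was 2 without COL BRAF off replicate 2 or either COL p53 off library, and was 24 without either COL p53 on library. The mtDNA count was 0 without COL BRAF on replicate 2, COL BRAF off replicate 1 or COL BRAFp53 on replicate 2, 1 without COL BRAFp53 off replicate 2 and 2 without COL BRAF on replicate 1.

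In SI the same difference was called for 2 of 89 nuclear members, both lower, where 6.28% of all genes were lower and 1.93% higher. Cox7a1, which rose in SI BRAF and fell in SI BRAFp53, differed by −1.75 (SE 0.24, adjusted p = 0.000917), and Ndufa11 by −0.50 (adjusted p = 0.0484). Of the 13 mtDNA members edgeR called 0, with 2 at an unadjusted p under 0.05, DESeq2 1 and limma-voom 0, and the median was 0.24. The nuclear count was 1 to 4 and the mtDNA count 0 to 2 with a library left out. Without SI BRAF on replicate 1 the nuclear count was 1, with Cox7a1 at −1.67 (adjusted p = 0.0017) and Ndufa11 at −0.41 (adjusted p = 0.0918).

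The colon and small intestinal responses to the same genotype also differed. For BRAF, the COL response minus the SI response was lower for 7 of 89 nuclear members, where 7.4% of all genes were lower, and higher for 5 of 13 mtDNA members, where 3.31% were higher. The nuclear share was close to the background, but the 7 included all 4 genes of complex II (Sdhd −0.71, Sdha −0.55, Sdhb −0.54, Sdhc −0.52), beside Cox7a1 (−1.44, adjusted p = 0.00174), Ndufb10 (−0.62) and the ATP synthase stalk gene Atp5o (−0.58). The mtDNA members were mt-Cytb (0.98), mt-Co3 (0.97), mt-Nd4 (0.96), mt-Atp6 (0.90) and mt-Nd5 (0.88). The nuclear count was 2 without COL BRAF on replicate 2 or SI BRAF off replicate 2, 3 without COL BRAF off replicate 1 or SI BRAF on replicate 1 and 14 without SI BRAF on replicate 2. The mtDNA count was 1 without COL BRAF on replicate 2 or off replicate 1, 2 without SI BRAF on replicate 1 and 3 without SI BRAF off replicate 2.

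For BRAFp53, the COL response minus the SI response was higher for 11 of 89 nuclear members, where 1.39% of all genes were higher. It was lower for 6 of 13 mtDNA members, where 2.13% of all genes were lower. More nuclear members were called by DESeq2, without the low-count filter and with at least 10 counts in every library. Cox7a1 differed by 1.26 (adjusted p = 0.0148), Ndufaf5 by 0.87, Ndufa6 by 0.77, and Ndufs7 and Ndufs8 by 0.71 each. mt-Nd2 differed by −1.32, mt-Nd5 by −1.09, mt-Nd1 by −1.04 and mt-Nd4 by −1.01. The nuclear count was 0 without SI BRAFp53 on replicate 2, 1 without SI BRAFp53 off replicate 1, 7 without off replicate 2, 3 to 5 without COL BRAFp53 on replicate 1, on replicate 2 or off replicate 2, and 17 to 29 without COL BRAF on replicate 2, SI p53 on replicate 2 or SI BRAF on replicate 2. The mtDNA count was 0 without COL BRAFp53 off replicate 2 or SI BRAFp53 off replicate 1, 2 to 3 without COL BRAFp53 on replicate 1 or on replicate 2 or either SI BRAFp53 on library, and 10 without COL BRAFp53 off replicate 1. Dose, day and medium cannot be told apart from tissue in either contrast.

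**Figure D4:**
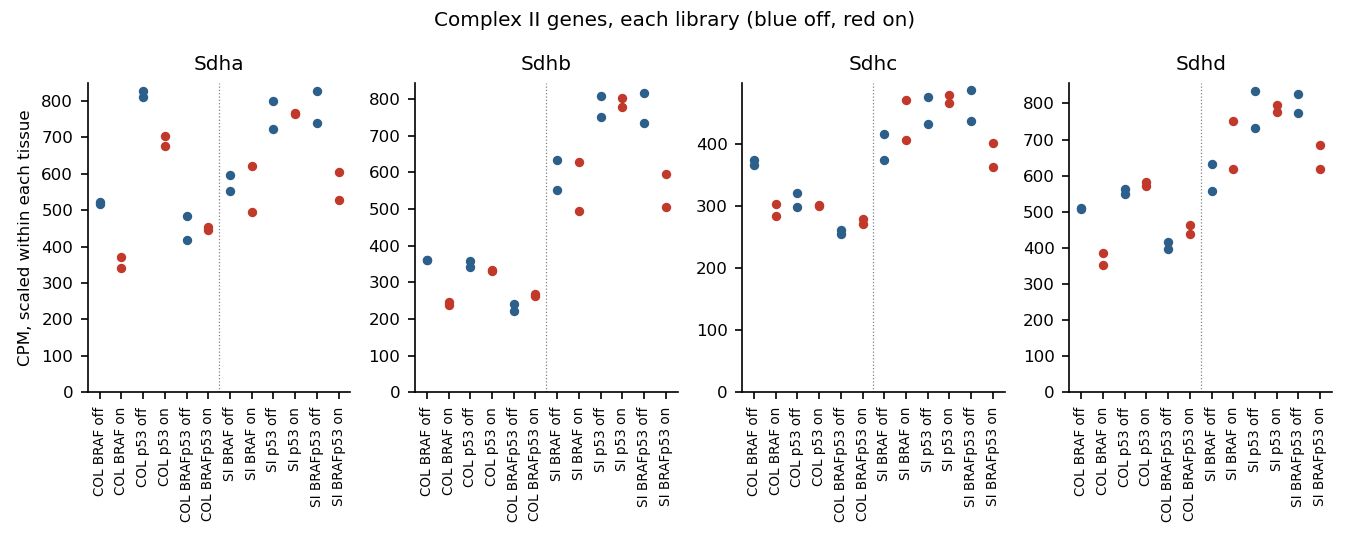
CPM of Sdha, Sdhb, Sdhc and Sdhd in every library (vertical axis), by arm and state (blue off, red on). In COL BRAF both on libraries lie below both off libraries for all 4 genes, and in SI BRAF Sdha reads 597 and 552 CPM off and 622 and 494 on.

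Most nuclear members were lower in COL off organoids than in SI off organoids. With the culture as the unit (3 of COL against 3 of SI, duplicates summed), 73 of 88 nuclear members were lower in COL and 0 higher, where 12.6% of all 17789 genes tested were lower and 17.0% higher, and the median log2 difference was −0.77 against 0.08 for all genes. The lower members were 33 of 37 in complex I, 2 of 8 assembly factors, 3 of 4 in complex II, 7 of 8 in complex III, 13 of 14 in complex IV and 15 of 17 in complex V. The summed nuclear level was 20590, 22060 and 16810 CPM in the COL BRAF, p53 and BRAFp53 cultures and 30080, 36580 and 36510 CPM in those of SI, which did not overlap. Cox7a1 was 10.6 ± 6.0 CPM in COL and 58.9 ± 4.98 CPM in SI (SD, n = 3 and 3), a log2 difference of −2.48 (SE 0.39, adjusted p = 0.00549). Sdhb was at 342, 336 and 221 CPM in COL and 664, 890 and 880 CPM in SI (−1.44, adjusted p = 0.00518), whereas Sdha overlapped between the tissues (−0.49, adjusted p = 0.196). Cox5a (−2.03), Ndufab1 (−1.54) and Ndufa11 (−1.23) were also lower in COL. The count stayed between 66 and 74 with a library left out. The day of isolation and the medium also differed, and they cannot be told apart from the tissue. Cell type markers also differed, with 8 of 12 enterocyte and colonocyte markers lower and 1 higher in COL (median −3.25), and 3 of 5 Paneth, 4 of 6 goblet, 3 of 5 enteroendocrine, 2 of 3 tuft and 3 of 5 stem cell markers higher, while 1 of 5 stem cell markers was lower. Their part in the result was not tested.

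The mtDNA members of high level did not show this difference. Their summed level was 30320, 19030 and 35340 CPM in the COL cultures and 38490, 25100 and 29290 CPM in those of SI, which overlapped. With edgeR 0 of the 7 were called, 1 had an unadjusted p under 0.05 (mt-Nd4), and the median was −0.39. mt-Co1 was 11300 ± 2680 CPM in COL and 9483 ± 3070 CPM in SI (SD, n = 3 and 3), a log2 difference of 0.25. All 6 of low level were called lower in COL (median −2.83), with mt-Co2 at 5.71 ± 2.03 against 42.4 ± 10.6 CPM and mt-Co3 at 11.6 ± 4.13 against 90.9 ± 29.4 CPM. The pseudogene copies on chromosome 1 moved alongside, with Gm28661, the copy of mt-Co2, at no more than 6.40 CPM in COL libraries and at 20.9 to 44.8 CPM in SI libraries, and Gm10925, the copy of mt-Atp6, at 4.71 to 17.3 and 42.9 to 86.5 CPM. Their part in the difference was not tested.

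**Figure D5:**
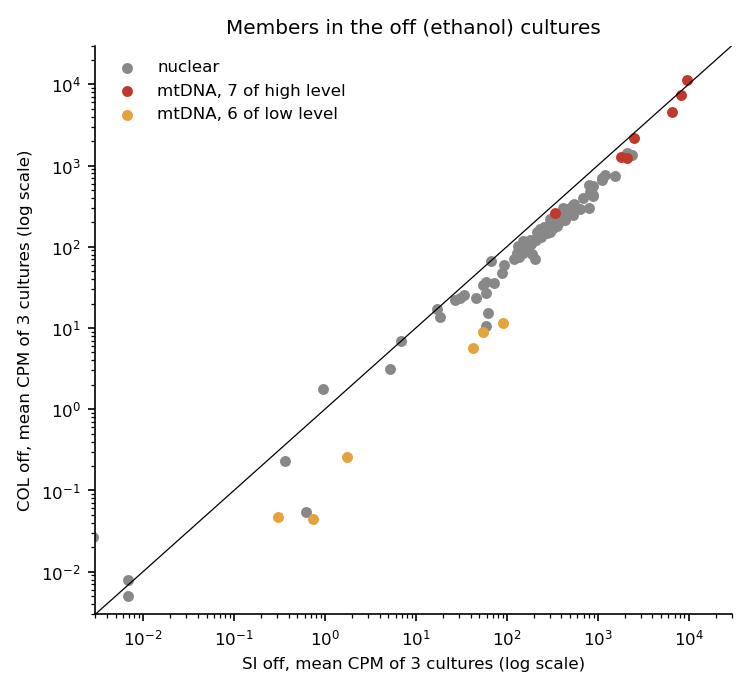
Mean CPM of each member in the 3 SI off cultures (horizontal axis) and the 3 COL off cultures (vertical axis), both logarithmic, with nuclear members in grey, mtDNA genes of high level in red, those of low level in orange and a line of equality. Members listed at 0 in either tissue are left out. Most nuclear members lie below the line, 73 of 88 called, and the mtDNA genes of high level lie near the line.

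Several subunits have alternative isoforms. For Cox4i, Cox6a, Cox6b, Cox8 and Ndufa4 a single form made up nearly all of the set's level per kilobase, and Cox7a and the ring subunit of ATP synthase were mixed. Cox4i1 averaged 523 CPM per kb in COL and 670 in SI, and its lung form Cox4i2 0.0922 and 0.0149. Cox6a1 averaged 1068 CPM per kb in COL and 1423 in SI against 0.0456 and 0.724 for its muscle form Cox6a2. Cox8a averaged 567 and 791 CPM per kb against 0.0143 and 0.0316 for Cox8b, and Cox6b1 428 and 661 against 1.85 and 0.758 for its testis form Cox6b2. Cox7a2, the widely expressed form, averaged 227 CPM per kb in COL and 336 in SI, Cox7a2l, which takes part in supercomplexes, 112 and 128, and Cox7a1 17.9 and 102. Among the forms above trace level Cox7a1 differed most between the tissues, and it was called in 3 of the 4 arms that carried BRAFV600E, in both directions. Ndufa4 averaged 205 CPM per kb in COL and 272 in SI against 0.222 and 0.347 for Ndufa4l2. The 3 genes for the ATP synthase ring subunit were expressed together. In COL, Atp5g3 was at 203, Atp5g1 at 84.2 and Atp5g2 at 80.1 CPM per kb. Their annotated lengths were 2181, 4912 and 1675 bases, so these values depend on the length used.

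Genes outside the members that serve the chain were counted in lists, to be read against the share of all genes in each arm. In COL BRAF, where 9.61% of all genes fell and 10.3% rose, 8 of 13 tricarboxylic acid cycle genes, 9 of 36 assembly factors outside the rule, 5 of 19 genes of mtDNA transcription, replication and RNA stability and 3 of 12 biogenesis regulators fell and 0 of these rose by edgeR. Of the mitochondrial ribosomal protein genes 14 of 77 fell and 1 rose, of the carriers beside the chain 2 of 13 fell and 1 rose, and of the hypoxia response genes 1 of 10 fell and 2 rose. The cycle list shares the 4 complex II genes with the members. In COL BRAFp53, where 9.95% of all genes rose and 7.76% fell, 19 of 77 mitochondrial ribosomal protein genes, 6 of 13 carriers, 6 of 10 hypoxia response genes, 4 of 13 cycle genes and 1 of 19 genes of mtDNA transcription rose and 0 of these fell by edgeR, while 4 of 36 assembly factors rose and 1 fell and 2 of 12 biogenesis regulators fell. In SI BRAF, where 17.5% of all genes rose and 14.2% fell, 2 of 77 mitochondrial ribosomal protein genes rose and 18 fell, 5 of 13 cycle genes rose and 1 fell, 7 of 13 carriers rose and 1 fell, and 7 of 10 hypoxia response genes rose and 1 fell. There, 5 assembly factors rose and 5 fell of 36, 1 of 19 genes of mtDNA transcription rose and 4 fell, and 1 of 12 regulators rose and 5 fell. Without SI BRAF on replicate 1, where 15.4% of all genes rose and 14.3% fell, 0 of 77 mitochondrial ribosomal protein genes rose and 31 fell, 1 of 19 genes of mtDNA transcription rose and 9 fell, 5 of 13 cycle genes rose and 5 fell, 1 of 12 regulators rose and 3 fell, 3 assembly factors rose and 4 fell of 36, 6 of 13 carriers rose and 1 fell, and 7 of 10 hypoxia response genes rose and 1 fell. In SI BRAFp53, where 6.98% of all genes rose and 4.53% fell, 2 of 77 mitochondrial ribosomal protein genes fell, a smaller share than that of all genes. There 5 of 10 hypoxia response genes rose, 2 of 13 cycle genes fell and 2 of 13 carriers rose and 2 fell, with 0 calls by edgeR in the other 3 lists. In the p53 arms 0 genes of these lists passed by edgeR.

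Tfam, which packages mtDNA and starts its transcription, fell in COL BRAF from 87 and 81.3 CPM to 52.6 and 55.6 CPM (−0.64, adjusted p = 0.00854) and in SI BRAF from 97.1 and 80.5 CPM to 66.8 and 43.2 CPM (−0.69, adjusted p = 0.0102). In COL BRAFp53, where the mtDNA members fell furthest, Tfam did not pass (−0.27, adjusted p = 0.22). Polrmt, the mitochondrial RNA polymerase, was called in no arm. Ppargc1a, a coactivator of mitochondrial biogenesis, rose in SI BRAF from 13.1 and 16.6 CPM to 32.3 and 33.8 CPM (1.15, adjusted p = 0.000314) and had a log2 fold change of −0.41 in COL BRAF (adjusted p = 0.207). Nrf1, which binds promoters of nuclear members, fell in SI BRAF (−0.40, adjusted p = 0.0267). Cs, the citrate synthase that opens the cycle, rose in SI BRAF from 508 and 472 CPM to 852 and 862 CPM (0.81, adjusted p = 2.74e-05) and in COL BRAFp53 (0.30, adjusted p = 0.0466). Cycs, the somatic cytochrome c, rose by 0.61 in SI BRAF and 0.58 in COL BRAFp53 on the log2 scale. Without SI BRAF on replicate 1, Tfam (−1.02, adjusted p = 0.000409), Ppargc1a (1.21, adjusted p = 0.000744), Cs (0.83, adjusted p = 8.34e-05) and Cycs (0.49, adjusted p = 0.0077) still passed in SI BRAF and Nrf1 did not (−0.43, adjusted p = 0.0523).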

How the data were processed

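The authors trimmed paired-end HiSeq4000 reads with Trimmomatic 0.36 and aligned them with STAR 2.5.2b to mm10 (mm9 is also listed), and deposited raw counts per Ensembl gene, 1 column per library. The strand setting, the counting of multi-mapping reads and the annotation release were not given in the sources used here. Gene IDs were matched to GENCODE M21 (45143 of 45706 matched, 563 did not). Within each tissue, all 12 libraries entered one fit with edgeR 4.0.16 (R 4.3.3), using filterByExpr, TMM and the quasi-likelihood test with Benjamini-Hochberg adjustment over all genes tested and a threshold of 0.05. Tissue differences in response used a joint fit of the 24 libraries. Off organoids were compared after summing duplicates per culture. DESeq2 1.42.0 and limma-voom (limma 3.58.1) were alternatives, as were other scalings, filters, a replicate block and leaving out each library. Near-identical copies were sought with 95% identity over 200 bases.

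The members and lists were chosen with earlier results of these data known. Named genes were the 13 mtDNA members, the isoform sets, complex II, Braf and Trp53, a set of regulators, and up to 5 nuclear members per direction and comparison by size of change among those called, no overlap between the states and a mean log2 CPM not under 1 (no side rule in the difference contrasts). Other members are named to complete a count.

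Libraries held 44350747 to 78175143 counts. The 3-count floor was 0.0384 to 0.0676 CPM and covers counting error only. Duplicates differed by more than counting noise (chi-square over degrees of freedom 20.5 to 92.4). Labels give duplicates as replicates of a culture, so p-values measure only the spread between these libraries. The fits were checked on simulated data.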

Additional observations from a re-analysis of the deposited data

Results flagged for a closer look

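Each result here was called because the response of a member differed between cultures by the test of the difference itself (edgeR quasi-likelihood interaction, Benjamini-Hochberg adjusted p under 0.05). Values are log2 differences.

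In COL, the BRAFp53 response minus the BRAF response was called for 9 nuclear members (all higher, where 0.532% of all genes were higher) and 7 mtDNA members (all lower, where 0.374% were lower). The nuclear ones named are Ndufaf5 (1.43), Ndufb10 (0.86), Ndufs7 (0.79), Ndufb8 (0.78) and Uqcrc1 (0.78). The mtDNA genes of high level were mt-Nd1 (−1.60), mt-Nd2 (−1.71), mt-Co1 (−1.66), mt-Nd4 (−1.73), mt-Nd5 (−1.79) and mt-Cytb (−1.66). In SI, the same difference was called for 2 nuclear members, Cox7a1 (−1.75) and Ndufa11 (−0.50), where 6.28% of all genes were lower.

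For BRAF, the COL response minus the SI response was called for 7 of 89 nuclear members, all lower, which is close to the 7.4% of all genes that were lower, and for 5 mtDNA members, all higher, where 3.31% were higher. Among them were Cox7a1 (−1.44), Sdhd (−0.71), Ndufb10 (−0.62), Atp5o (−0.58), Sdha (−0.55), mt-Nd4 (0.96), mt-Nd5 (0.88) and mt-Cytb (0.98). For BRAFp53 it was called for 11 nuclear members (all higher, where 1.39% of all genes were higher) and 6 mtDNA members (all lower, where 2.13% were lower), among them Cox7a1 (1.26), Ndufaf5 (0.87), Ndufa6 (0.77), Ndufs7 (0.71), Ndufs8 (0.71), mt-Nd1 (−1.04), mt-Nd2 (−1.32), mt-Nd4 (−1.01) and mt-Nd5 (−1.09). These contrasts share libraries, since each response enters more than 1 of them. With any 1 library left out, 0 of the 12 calls named for the COL genotype difference and 0 of the 11 for the BRAFp53 tissue difference held in every fit, against 1 of 2 for SI and 2 of 10 for the BRAF tissue difference.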

How the results depend on the processing

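Of the single-gene calls recomputed, none turned its direction under an alternative. The median of the nuclear members in SI BRAF ran from −0.196 to 0.0288 with a library left out. Counts are of members called, nuclear or mtDNA. Without the low-count filter they were 4 mtDNA (rising) in COL BRAF, 1 nuclear in COL p53, 2 nuclear and 3 mtDNA in SI p53, 15 nuclear and 4 mtDNA in SI BRAFp53, 27 nuclear in the COL and 4 nuclear and 1 mtDNA in the SI difference of BRAFp53 and BRAF, 9 mtDNA in the COL and SI difference for BRAF, and 24 nuclear and 10 mtDNA in that for BRAFp53. DESeq2 called 39 nuclear members in COL BRAF, 2 in SI p53, 16 in SI BRAFp53, 40 in the COL and 8 (with 1 mtDNA) in the SI difference of BRAFp53 and BRAF, and 15 and 37 in the COL and SI differences for BRAF and BRAFp53. Limma-voom called 16 nuclear members in SI BRAFp53, and RLE size factors 1 mtDNA member there. With at least 10 counts in every library, 26 nuclear members were called in the tissue difference for BRAFp53 and 1 mtDNA member in the SI difference of genotypes. The cause of these shifts was not tested. Restricted to the 7 mtDNA genes of high level, a choice made after seeing the data, the tissue difference for BRAF gave 3 and the off comparison 0. Nuclear members without a near-identical copy, also a choice made after seeing the data, gave 19 of 65 in COL BRAF, 12 of 65 in COL BRAFp53, 8 of 66 in SI BRAF and 6 of 66 in SI BRAFp53. On the TMM scale the summed ratios of on over off were 0.832 (nuclear, COL BRAF), 1.15 (nuclear, COL BRAFp53), 0.703 (mtDNA, SI BRAF) and 0.985 (nuclear, SI BRAF), and as a share of nuclear reads the nuclear ratio of COL BRAFp53 was 0.980, so its direction depends on the scale. The YY1 word lay in 1.2% of member promoters when only the 250 bases before the start were searched.

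Same-numbered on and off libraries did not deviate together (correlations −0.059 to 0.085). This cannot show whether they were handled as pairs, and the main fits used no pairing. With a replicate block the nuclear counts were 19 in COL BRAF, 11 in COL BRAFp53, 10 in SI BRAF, 8 in SI BRAFp53, 0 in the COL and 1 in the SI difference of BRAFp53 and BRAF, and the mtDNA count of SI BRAFp53 was 1.

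With 1 library left out, the nuclear counts ranged from 10 to 43 in COL BRAF, 2 to 16 in COL BRAFp53, 3 to 17 in SI BRAF, 0 to 2 in SI p53, 1 to 13 in SI BRAFp53, 0 to 24 and 1 to 4 in the genotype differences of COL and SI, 2 to 14 and 0 to 29 in the tissue differences for BRAF and BRAFp53, and 66 to 74 in off organoids. The mtDNA counts ranged from 9 to 10 in COL BRAFp53, 6 to 9 in SI BRAF, 0 to 6 in SI BRAFp53, 0 to 9 and 0 to 2 in the genotype differences, 1 to 6 and 0 to 10 in the tissue differences, and 6 to 7 in off organoids. A fit that leaves 1 library on a side assumes that it varies like the other groups. Of the single-gene calls named, 6 of 10 in COL BRAF, 11 of 18 in COL BRAFp53, 6 of 17 in SI BRAF, 1 of 7 in SI BRAFp53, 0 of 12 and 1 of 2 in the genotype differences, 2 of 10 and 0 of 11 in the tissue differences and 11 of 11 in off organoids held with any 1 library left out. With 2 libraries per group a member without a call may still have changed.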
